A study of Mus musculus with 12 samples.

Results

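The regions described here are the SINE B2 loci of the mouse genome, that is, every row of a locus-by-locus repeat count table whose class and family label reads SINE/B2. There were 349205 such loci among 3156417 repeat rows, next to 499210 loci of SINE B1 and 380549 of SINE B4. They were chosen by their annotation alone, without regard to any measured value. The counts came from total RNA of mouse naive CD4+ T cells of spleen and peripheral lymph nodes, depleted of ribosomal RNA and sequenced as stranded paired-end libraries. Wild-type (WT) cells and cells with a DDX55 knockout (KO) were taken at 0 h and after 8 and 24 h of activation on plates coated with anti-CD3 at 5 ug/ml, together with anti-CD28 at 2.5 ug/ml. This gave 6 groups of 2 libraries, 12 in all. DDX55 is a DEAD-box RNA helicase. No label names the promoter or Cre that removed it, the exons removed, or separate animals behind the replicate libraries, so the p-values measure only the spread between these libraries, which may be technical. The design asks how RNA from B2 loci changes with activation and whether the knockout alters it.

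B2 elements are short interspersed elements derived from a transfer RNA gene. A complete copy carries an internal RNA polymerase III promoter, made of an A box and a B box, and ends in an A-rich tail. Copies inside genes are also transcribed passively by RNA polymerase II as part of introns and exons, and a read over such a copy cannot by itself be assigned to either polymerase. The annotation divides the family into the B2_Mm1a, B2_Mm1t and B2_Mm2 subfamilies and the older B3 and B3A subfamilies. B2 RNA has been studied as a repressor of RNA polymerase II after heat shock and as an RNA that is cleaved when stress genes are switched on, and B2 copies carry binding sites of the insulator protein CTCF.

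To show what a B2 copy looks like and how far the subfamilies have drifted from the internal promoter, the sequences of 5 loci inside noncoding exons are printed. They are abundant loci of the B2_Mm1t, B3A and B3 subfamilies and the loci in Gm11346 and Gm37795 whose counts are described further on. The letters come from the GENCODE transcripts of build GRCm38 and are given on the strand of the transcript, 5′ to 3′. Capitals mark the B box letters GTTCAANNC, or their reverse complement, where a locus holds them. The B2_Mm1t copy lies in AI506816 (chr5:23710138-23710325, minus strand) and the B2_Mm2 copy in Gm11346 (chr13:24597608-24597709, minus strand). The B3A copy lies in A230050P20Rik (chr9:20870542-20870714, plus strand), and the B3 copies in Clk1 (chr1:58414959-58415127, minus strand) and Gm37795 (chr4:150070589-150070759, plus strand).
B2_Mm1t in AI506816: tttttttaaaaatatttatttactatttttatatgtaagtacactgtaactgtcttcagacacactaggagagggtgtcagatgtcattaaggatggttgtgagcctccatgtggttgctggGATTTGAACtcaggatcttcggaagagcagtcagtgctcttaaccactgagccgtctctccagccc
B2_Mm2 in Gm11346: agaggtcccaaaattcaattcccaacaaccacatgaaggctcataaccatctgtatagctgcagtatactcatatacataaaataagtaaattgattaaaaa
B3A in A230050P20Rik: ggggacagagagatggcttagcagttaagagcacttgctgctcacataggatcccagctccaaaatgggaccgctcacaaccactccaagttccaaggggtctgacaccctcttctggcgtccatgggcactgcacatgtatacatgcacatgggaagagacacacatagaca
B3 in Clk1: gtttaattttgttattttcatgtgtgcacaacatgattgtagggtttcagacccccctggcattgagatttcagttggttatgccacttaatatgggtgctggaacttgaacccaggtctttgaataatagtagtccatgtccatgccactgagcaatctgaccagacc
B3 in Gm37795: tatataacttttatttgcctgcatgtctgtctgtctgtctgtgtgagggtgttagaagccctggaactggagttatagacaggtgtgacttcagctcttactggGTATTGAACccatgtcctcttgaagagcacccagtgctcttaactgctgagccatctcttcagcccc
The AI506816 and Gm37795 copies hold the B box letters on the strand opposite to the host transcript, so those 2 elements point against their host. The copies in Gm11346, A230050P20Rik and Clk1 hold no exact match. The Gm11346 copy is only 102 bases long, against 188 for the AI506816 copy.

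A sequence was found for 8536 of the 11297 B2 loci that overlap an annotated exon (75.6%), because only loci lying whole inside 1 exon can be read from transcripts. On either strand, 2557 of these 8536 loci held the B box letters GTTCAANNC. The share was 88.4% in B2_Mm1a, 81.4% in B2_Mm1t and 65.7% in B2_Mm2, against 13.6% in B3 and 3.59% in B3A. It was 14.7% in exonic B1 loci and 2.79% in 32851 RefSeq promoter windows of 300 bases (build GRCm38.p6), which are longer than the loci. These B1 loci were only those with a count in at least 1 library, while the B2 loci were taken with or without a count. The A box letters TGGCTCAG were present in 33.4% of the B2 loci, in 0.694% of B1 loci and in 3.06% of promoter windows. The polyadenylation signal AATAAA was present in 46.3% of the B2 loci and in 96.1% of the B2_Mm1a loci, against 5.68% of B1 loci and 19.6% of promoter windows. The letters CTCTNNTGG, a short core resembling part of the CTCF motif, were present in 31.0% of the B2 loci and 6.75% of promoter windows, and the terminator letters TCTTT in 39.3% and 55.0%. Both strands were searched for each motif, the motifs may overlap one another, and a match is a description of the letters only.

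Gene counts totalled 16810375 to 19126498 per library, and B2 counts 137144 to 222195, which is 0.728% to 1.18% of the gene counts and 11.5% to 13.1% of all repeat counts. Ddx55 itself was at 45.3 to 68.7 CPM (counts per 1000000 gene counts, scaled by trimmed mean of M-values, or TMM, factors) in the 6 WT libraries and 14.4 to 19.5 in the 6 KO libraries, with no overlap. All 16 T cell identity genes on the marker list were detected in the table, and their summed level was 10379 to 10583 CPM in WT and 9152 to 9851 CPM in KO cells at 0 h. At 24 h the T cell sum was 5092 to 5690 CPM in WT and 6344 to 6566 CPM in KO cells. B cell markers summed to under 8 CPM in every library. Markers of CD8 T and NK cells (6 genes) summed to 41.7 to 52.7 CPM in WT and 84.4 to 163 CPM in KO at 0 h, and to 7.54 to 8.44 and 10.9 to 14.5 CPM at 24 h. Erythroid markers (4 genes) summed to 80.0 to 265 CPM in WT and 91.4 to 181 CPM in KO at 0 h. Neutrophil progenitor markers (10 genes) summed to 12.99 to 55.8 CPM in WT and 509 CPM in both KO libraries at 0 h, and to 0.433 to 0.592 CPM in WT and 21.9 to 86.3 CPM in KO at 24 h. Basophil and mast cell markers (5 genes) summed to 10.3 to 30.4 CPM in WT and 259 to 710 CPM in KO at 0 h, and to 3.68 to 4.31 CPM in WT and 140 to 523 CPM in KO at 24 h. None of these genes was at 0 in all libraries, and the part of such cells in the knockout differences below was not tested. In bulk RNA, fewer cells of a type and less RNA per cell cannot be told apart.

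Most B2 loci were silent or nearly so at this depth. A count in at least 1 of the 12 libraries was found at 102360 loci (29.3%), and 24297 of these had a single count over all libraries. A count in all 12 libraries was found at 6692 loci. The filter on low counts left 5773 loci for testing (1.65%), with a median of 115 counts over the 12 libraries, and these held 61.7% of all B2 counts. The counts were concentrated: the most abundant locus held 2.11% of them, the top 10 held 6.35%, the top 100 held 15.97% and the top 1000 held 35.9%. A locus that passed the filter only through the group where it is high had to differ, so the shares of tested loci given below describe expressed loci and not the family.

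The subfamilies differed in how often a copy was detected. B2_Mm1a had 14593 loci, of which 55.2% had a count, B2_Mm1t 33846 (41.1%), B2_Mm2 71534 (31.2%), B3 139719 (27.2%) and B3A 89505 (22.4%). A further 8 loci carry 2 subfamily names. By total counts over the 12 libraries the order was different, with B3 at 851978, B2_Mm2 at 417843, B3A at 388515, B2_Mm1t at 286245 and B2_Mm1a at 161000. Near-identical young copies share reads, and no source used here says how reads with several alignments were counted, so the split of counts between such copies is uncertain.

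Position relative to genes separated the loci more sharply. Exonic loci made up 3.24% of B2 loci and 37.3% of B2 counts, and 64.5% of them had a count. Intronic loci made up 51.6% of loci and 54.0% of counts, and 40.4% had a count. Loci within 10 kb downstream of a gene had a count in 24.97% of cases and loci within 10 kb upstream in 14.6%. Of 79423 loci farther than 10 kb from any annotated gene, 7.26% had a count, and they held 1.60% of the counts. Of those 33729 counts, 19.8% came from 1 locus on chromosome 2. Among exonic loci, 2974 in 3′ untranslated regions held 503586 counts, 7799 in noncoding exons held 233972, 276 in 5′ untranslated regions held 22572 and 244 in coding exons held 25944.

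**Figure D1:**
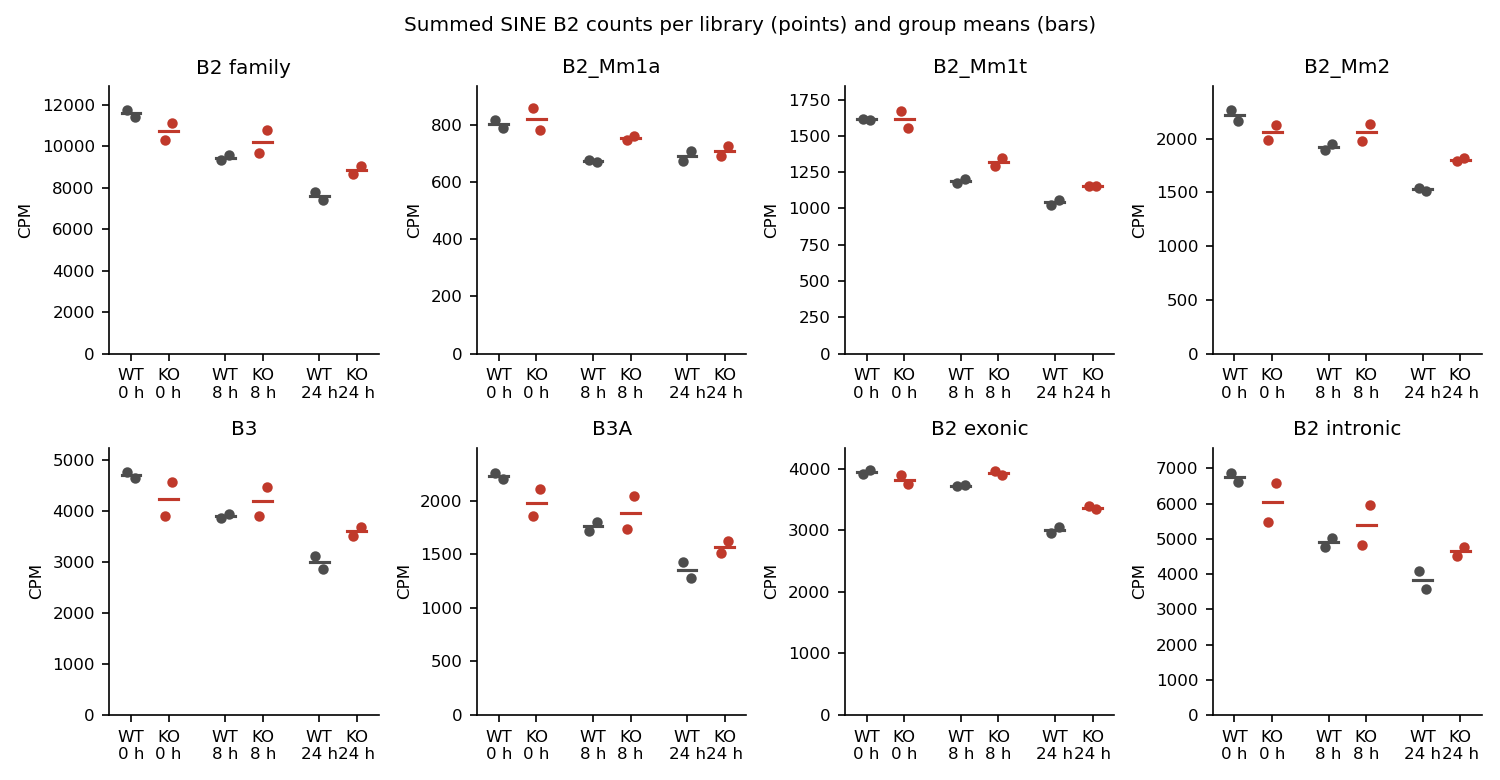
B2 CPM (counts per 1000000 gene counts, vertical axes from 0) in each library, by group on the horizontal axis, for the family, its 5 subfamilies, and its exonic and intronic loci; points are libraries and bars the group means of 2 libraries. In WT cells the family total goes from 11573 CPM at 0 h to 7603 CPM at 24 h, and the intronic panel shows the steepest decline.

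Activation of WT cells lowered B2 RNA relative to gene RNA. The 2 WT libraries at 0 h had B2 totals of 11724 and 11422 CPM, those at 8 h 9325 and 9570, and those at 24 h 7789 and 7416. No library of one time overlapped those of another, and the order ran from 0 h down to 24 h. The group means were 11573 ± 214 (SD, n = 2), 9448 ± 174 and 7603 ± 264 CPM. The log2 change was -0.29 ± 0.10 (SE) at 8 h and -0.61 ± 0.10 at 24 h, with adjusted p = 0.00969 and 3.6e-08 in edgeR's quasi-likelihood test over 34 repeat families. At 24 h this is a change of -34.3%. Among all 34 families, 50% were called lower at 8 h and 76.5% at 24 h. The related B1 family changed by -0.46 and B4 by -0.75 at 24 h. The decline was one of all repeats relative to genes: scaled by the repeat table's own totals, the B2 change was 0.05 at 8 h and 0.08 at 24 h, and neither passed the test. At 8 h the call was also lost with another scaling from the gene table (adjusted p = 0.0514) and without any 1 of 3 libraries, both WT libraries at 0 h and the first at 8 h.

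The decline was larger in intronic than in exonic B2 counts by point estimate, a difference that was not tested. Intronic B2 loci summed to 6866 and 6623 CPM in WT cells at 0 h, 4780 and 5019 at 8 h, and 4089 and 3572 at 24 h. Every library of a later time was below every library of an earlier one. The log2 changes were -0.46 ± 0.13 (adjusted p = 0.0243) and -0.82 ± 0.13 (adjusted p = 0.000778). The 8 h call was lost when any of the 4 WT libraries at 0 or 8 h was left out. Exonic B2 loci summed to 3917 and 3972 CPM at 0 h, 3717 and 3736 at 8 h, and 2962 and 3055 at 24 h. Their change at 8 h was -0.08 (adjusted p = 0.295) and at 24 h -0.39 ± 0.06 (adjusted p = 0.000764). Intergenic B2 loci changed by -0.11 at 8 h and -0.21 at 24 h and did not pass the test at either time (adjusted p = 0.425 and 0.109). Over 91 combinations of family and position, 37.4% were called lower at 8 h and 65.9% at 24 h. With repeat totals in place of gene totals the exonic change became 0.26 at 8 h and 0.29 at 24 h (adjusted p = 0.0302 and 0.00767 in edgeR's quasi-likelihood test). The intergenic change became 0.24 and 0.47 in that test (adjusted p = 0.0686 and 6.74e-05). The direction for exonic and intergenic copies thus depends on the reference.

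All 5 subfamilies fell in WT cells at both times relative to gene counts. At 24 h the log2 change was -0.72 in B3A, -0.65 in B3, -0.63 in B2_Mm1t, -0.54 in B2_Mm2 and -0.22 in B2_Mm1a, with adjusted p between 4.08e-06 and 0.0345. B2_Mm1a summed to 817 and 792 CPM at 0 h, 679 and 672 at 8 h and 675 and 708 at 24 h, so that its 8 h and 24 h libraries overlapped. B3A summed to 2260 and 2200 CPM at 0 h and 1424 and 1276 at 24 h. Of 1198 subfamilies in the repeat table, 37.6% were called lower at 8 h and 57.3% at 24 h. At 8 h the changes were -0.44 in B2_Mm1t, -0.34 in B3A, -0.27 in B3, -0.25 in B2_Mm1a and -0.21 in B2_Mm2. Of these, the B2_Mm1a and B3 calls were lost without any of the 4 WT libraries at 0 or 8 h, the B2_Mm2 call without any WT library, and the B3A call without the first WT library at 0 h or at 8 h. The 24 h call of B2_Mm1a was lost without any WT library or the first KO library at 24 h. Scaled by repeat totals, B2_Mm1a was higher at 24 h by 0.47 (adjusted p = 0.00241 in edgeR's quasi-likelihood test). The 24 h changes of B2_Mm1t, B2_Mm2 and B3 became 0.05, 0.14 and 0.03 in that test (adjusted p = 0.669, 0.0286 and 0.582).

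Single loci moved in both directions in WT cells. At 8 h, 540 of the 5773 tested B2 loci were called higher and 1071 lower, or 9.35% and 18.6%. The background over all 37279 tested repeat loci was 9.57% higher and 22.2% lower. At 24 h, 414 B2 loci were called higher (7.17%) and 1623 lower (28.1%), against a background of 7.32% and 32.4%. The median log2 change of the tested B2 loci was -0.33 at 8 h and -0.82 at 24 h, and that of all tested repeat loci -0.45 and -0.93. By position, the calls at 24 h were 160 higher and 1086 lower in introns (4.43% and 30.05% of 3614 tested). In exons they were 200 and 413 (11.4% and 23.6% of 1749), and outside genes 54 and 124 (13.2% and 30.2% of 410). DESeq2 called 943 B2 loci at 8 h and 1322 at 24 h in place of 1611 and 2037.

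**Figure D2:**
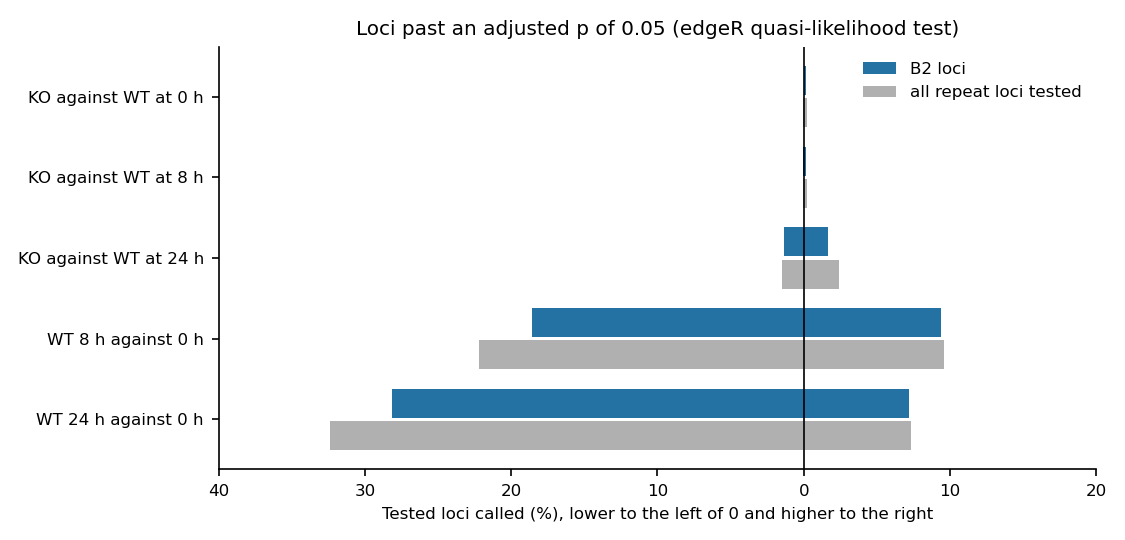
Percent of tested loci called higher or lower (horizontal axis, from 0) in each of 5 comparisons, for B2 loci (5773 tested) and for all repeat loci (37279 tested), by edgeR's quasi-likelihood test at an adjusted p under 0.05. The B2 bars lie near those of all repeat loci in each comparison, for example 28.1% against 32.4% lower in WT cells at 24 h.

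B2 loci mostly tracked the genes that hold them. Of the tested loci, 1701 exonic ones with a single tested host lay in 1364 genes and 3305 intronic ones in 1987 genes. Across these loci, which share libraries and in part reads with their hosts, Spearman's correlation between the log2 changes of locus and host at 8 h in WT cells was 0.79 for exonic and 0.69 for intronic loci, and at 24 h 0.75 and 0.63. Of 600 exonic loci called at 24 h, the host gene was called the same way for 513, the other way for 38, and was not called for 49. Of 1127 intronic loci called at 24 h, the host was called the same way for 830, the other way for 158, and was not called for 139. Over all genes, 33% were called higher and 33.5% lower at 24 h, and 28.4% and 33.6% at 8 h. Intronic loci lay below their hosts, with a median difference of -0.52 between locus and host change at 8 h and -0.98 at 24 h. For exonic loci the median differences were -0.12 and -0.36. These medians cover only loci that passed the low-count filter, and a locus that passed only through 0 h libraries had to fall. The part of the filter in the median differences was not tested.

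**Figure D3:**
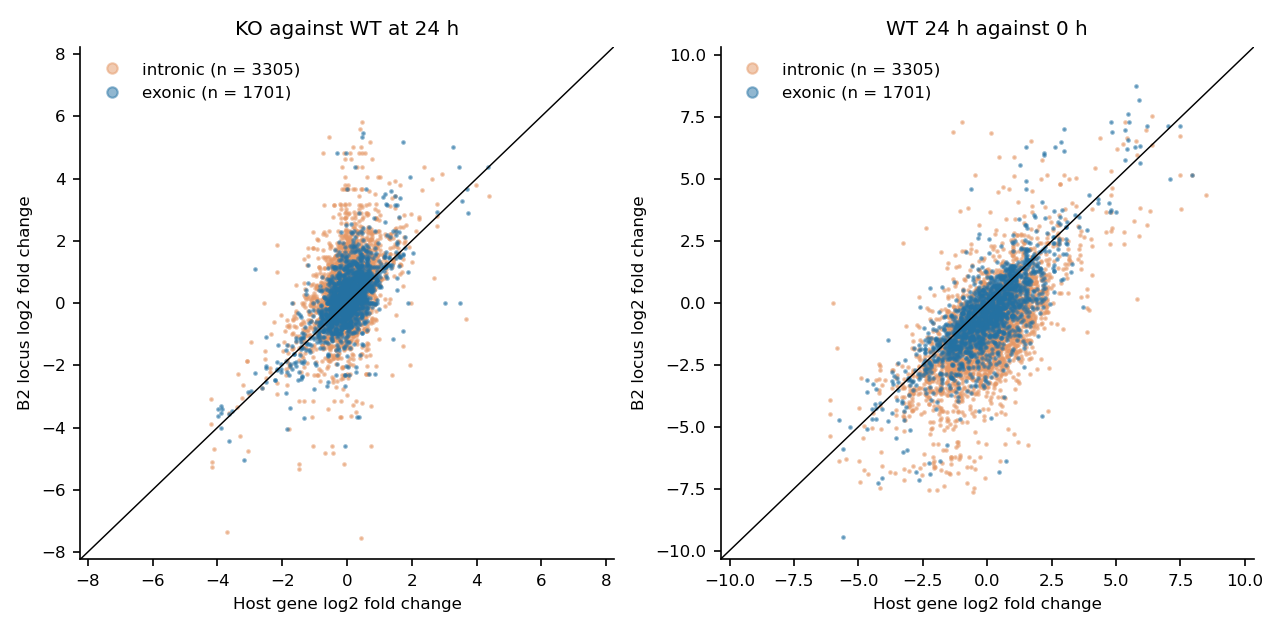
Log2 change of each tested B2 locus (vertical axis) against that of its host gene (horizontal axis), for exonic (n = 1701) and intronic (n = 3305) loci, in KO against WT cells at 24 h and in WT cells at 24 h against 0 h. Points lie along the diagonal for exonic loci, and in the WT comparison the intronic cloud is shifted below it by a median of -0.98. The part of the low-count filter in this shift was not tested.

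The genes with the most tested B2 loci are described next. A total of 107 genes held at least 5. Rbm39, a splicing factor, held 13, Ripor2 and Skap1 (an adaptor of T cell receptor signalling) held 11 each, and Eif4b, a translation initiation factor, and Emb held 10 each. Summed over its 11 loci, Ripor2 had 11.5 ± 2.75 CPM of B2 counts (SD, n = 2) in WT cells at 0 h, 0.816 ± 0.326 at 8 h and 0.539 ± 0.0745 at 24 h. All 11 were called lower at 24 h, with a median log2 change of -4.41, while the gene itself changed by -3.24. In Emb all 10 were called lower with a median of -3.65 against -1.13 for the gene, and in Skap1 7 of 11 with -3.53 against -2.10. In WT cells at 24 h the B2 sums were 0.539 CPM in Ripor2, 0.998 in Emb and 0.972 in Skap1. Most of these loci thus passed the low-count filter through 0 h libraries. Their calls as lower and their medians below the hosts follow in part from that filter. In Rbm39 7 of 13 were called lower, with a median of -1.37 against -0.65. Eif4b went the other way, with 1 of 10 called higher and none lower, a median of 0.47 and a gene change of 0.60. In KO against WT cells at 24 h the median difference of the B2 loci was 0.55 in Rbm39, 0.53 in Ripor2, 0.00239 in Skap1, -0.14 in Eif4b and -0.12 in Emb, beside gene differences of 0.45, -0.20, -1.05, 0.15 and -0.70.

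The 4 most abundant B2 copies sat in the 3′ untranslated regions of H2-D1, Clec2d, H2-T23 and Cd27. The first was a B2_Mm1t copy in H2-D1 (chr17:35267183-35267356), a classical MHC class I heavy chain, with a mean of 206 CPM. It had 5263 and 5280 counts in WT and 7150 and 5896 in KO at 0 h, 2294 and 2370 in WT and 2889 and 2909 in KO at 8 h, and 1728 and 2076 in WT and 3592 and 3082 in KO at 24 h. At 24 h both KO libraries were above both WT libraries. The log2 change of KO against WT at 24 h was 0.82 ± 0.13 (adjusted p = 1.43e-05 in edgeR's quasi-likelihood test) for the locus and 0.89 for the gene, and the WT change at 24 h was -1.61 for the locus and -1.65 for the gene. Of all repeat counts within 5 kb on either side, 98.4% were this locus's own. MHC class I genes have near-identical relatives, so the assignment of these reads is uncertain.

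The next loci had the same standing to their hosts. A B2_Mm1t copy in Clec2d (chr6:129186143-129186279), which encodes a ligand of natural killer cell receptors, averaged 80.9 CPM, and a B2_Mm1a copy in H2-T23 (chr17:36029989-36030176), a nonclassical class I gene, 70.7 CPM. The Clec2d copy had 583 and 752 counts in WT and 1616 and 1506 in KO at 24 h, and the H2-T23 copy 668 and 718 against 1548 and 1539. Both were higher in KO at 24 h, by 1.23 ± 0.15 and 1.16 ± 0.14 (adjusted p = 2.47e-08 and 5.83e-08), beside gene changes of 1.26 and 1.16. A B3A copy in Cd27 (chr6:125232834-125233045), a costimulatory receptor of the TNF receptor family, averaged 56.2 CPM and differed by 0.55 ± 0.16 (adjusted p = 0.0316) beside 0.65 for the gene. Copies in Nfkb1 (chr3:135669208-135669393, 5′ untranslated region), Tnfrsf9 (chr4:150945061-150945286) and Als2cl (chr9:110900109-110900294) averaged 37.2, 34.9 and 30.4 CPM. Nfkb1 encodes a precursor of an NF-kB subunit, and Tnfrsf9 the activation receptor 4-1BB. In WT cells at 8 h these 3 copies changed by 2.59, 5.95 and -3.06 beside gene changes of 2.58, 5.98 and -3.33. In KO against WT at 24 h the Nfkb1 and Tnfrsf9 copies were higher by 0.71 and 1.17 (adjusted p = 0.00493 and 1.87e-06).

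The B2_Mm2 copy in Snhg15, a noncoding host gene of a small nucleolar RNA, is the fifth by level (40.2 CPM). Its counts were 209 and 148 in WT and 315 and 258 in KO at 0 h, 957 and 761 against 1397 and 1014 at 8 h, and 399 and 523 against 1450 and 1294 at 24 h. KO libraries were above WT libraries at each time. The difference passed the test at 24 h (1.58 ± 0.19, adjusted p = 9.39e-08, with 1.56 for the gene), and the WT change at 8 h was 2.19 ± 0.19 beside 1.92 for the gene.

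Some abundant copies had no expressed host gene. A B2_Mm1a copy in an intron of the long noncoding RNA gene Gm11290 (chr13:22015913-22016094, 32.0 CPM) had 964 and 943 counts in WT and 1287 and 849 in KO at 0 h, 543 and 389 against 691 and 517 at 8 h, and 111 and 152 against 217 and 197 at 24 h. The gene table gave Gm11290 a total of 1 count over the 12 libraries, and no other repeat locus within 5 kb had a count. The copy changed in WT cells by -1.11 on the log2 scale at 8 h and by -2.999 at 24 h (SE 0.20 and 0.22, adjusted p = 0.000115 and 4.66e-12). Both KO libraries lay above both WT libraries at 24 h, and the difference of 0.66 ± 0.21 did not pass the test (adjusted p = 0.0852).

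The most abundant copy far from genes was a B2_Mm1t locus on chromosome 2 (chr2:79124565-79124749, 30.9 CPM), 25.7 kb from the nearest annotated gene, Gm37004. It had 37 and 24 counts in WT and 49 and 23 in KO at 0 h, 1270 and 1026 against 1203 and 931 at 8 h, and 515 and 663 against 508 and 428 at 24 h. The 0 h libraries were far below all others in both genotypes. In WT cells it rose by 5.16 ± 0.33 at 8 h and 4.13 ± 0.32 at 24 h (adjusted p = 8e-09 and 6.73e-08). Its difference between KO and WT at 24 h was -0.33 ± 0.26 (adjusted p = 0.616). Of the repeat counts within 5 kb, 99.9% were its own, and the 2 other loci there had 5 counts together.

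The remaining distant copies behaved differently from one another. A B2_Mm1a copy 47.7 kb from Gm13323 (chr2:17845677-17845862) had 2 and 0 counts in WT at 0 h, 86 and 65 at 8 h and 207 and 194 at 24 h, and in KO 0 and 0, 96 and 74, and 125 and 126. KO and WT did not differ there beyond the test at 24 h (-0.67 ± 0.26, adjusted p = 0.152), although the KO libraries lay below the WT libraries. A B2_Mm1a copy 15.4 kb from Mturn (chr6:54719211-54719400) had between 36 and 118 counts in all 12 libraries and was lower in WT cells at 8 h than at 0 h (-0.80 ± 0.30, adjusted p = 0.0330). A B2_Mm2 copy 17.1 kb from Ccr7 (chr11:99172159-99172339) had 33 and 20 counts in WT and 72 and 61 in KO at 24 h (1.33 ± 0.37, adjusted p = 0.0266), but held only 11.3% of the repeat counts within 5 kb. B2_Mm1t copies at chr2:71941301-71941489 and chr2:84016246-84016434 fell in WT cells. The first went from 58 and 104 counts at 0 h to 1 and 6 at 24 h (-4.63 ± 0.56, adjusted p = 1.63e-08). The second went from 80 and 95 to 0 and 0, which is at least 64.4-fold lower with a floor of 3 counts over the group.

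**Figure D4:**
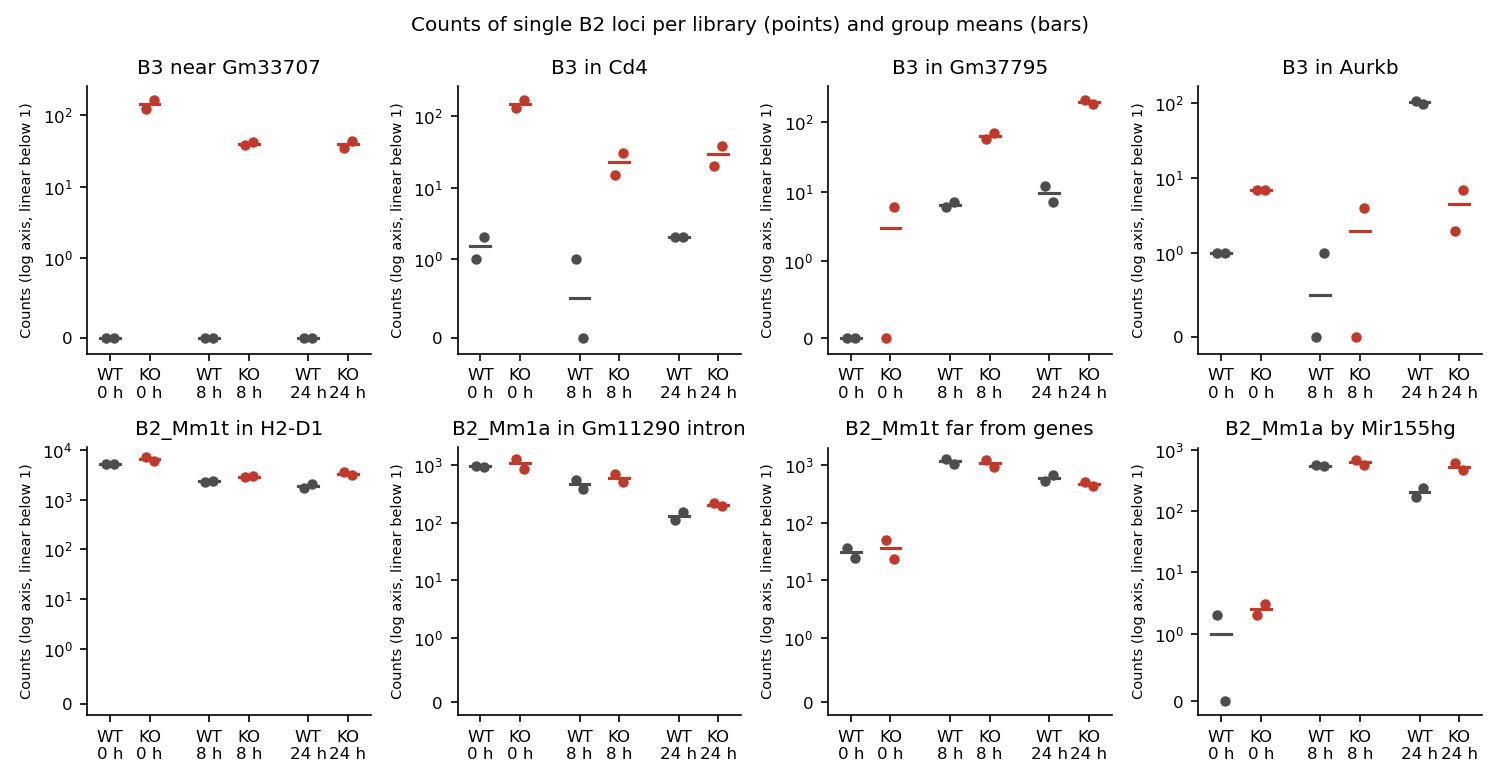
Counts of 8 B2 loci in each library (vertical axes, linear near 0 and logarithmic above), by group on the horizontal axis, 2 points per group. The B3 copy near Gm33707 and the B3 copy in Cd4 have counts almost only in KO libraries, and the copy on chromosome 2 far from genes is low at 0 h and high at 8 and 24 h in both genotypes.

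Among the largest gains in WT cells were copies by Mir155hg, Rgs16, Cdk7 and Lad1 and in Spc24. A B2_Mm1a copy 155 bases past the end of Mir155hg (chr16:84715400-84715618), the host gene of microRNA miR-155, had 2 and 0 counts in WT at 0 h, 562 and 541 at 8 h and 170 and 236 at 24 h. In KO cells it had 2 and 3, 702 and 577, and 610 and 466. Relative to 0 h in WT cells, the ratio was 525 (95% counting interval 145 to 4345) at 8 h and 184 (50.6 to 1523) at 24 h. The KO libraries at 24 h were above the WT libraries, and the difference of 1.41 ± 0.21 passed the test (adjusted p = 3.58e-06). The Mir155hg gene had 880 and 1015 counts in WT and 2860 and 2426 in KO at 24 h.

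Other gains at 8 h started from 0 counts in both WT libraries at 0 h. A B3 copy in an intron of Rgs16 (chr1:153743235-153743448), a regulator of G protein signalling, reached 130 and 120 counts, at least 79.4-fold higher. In an intron shared by Tnfrsf9 and Camta1 another B3 copy (chr4:150939037-150939255) reached 54 and 38 (at least 29.2-fold). The Lad1 3′ untranslated region held a B3 copy (chr1:135833148-135833328) that reached 52 and 30 (at least 26.0-fold), and a B3A copy in an intron of the antisense gene Gm41361 (chr15:80017747-80017891) 41 and 32 (at least 23.2-fold). At 24 h the gains included Lad1 (50 and 63 counts, at least 34.1-fold), a B2_Mm1a copy 977 bases upstream of Cdk7 (chr13:100731916-100732105, 58 and 65 counts, at least 37.1-fold) and a B3A copy in a noncoding exon of Slc9b2 (chr3:135315855-135315978, 42 and 34 counts, at least 22.9-fold). The B3 copy in the 3′ untranslated region of Spc24, a kinetochore gene, went from 1 count over both WT libraries at 0 h to 133 and 140 at 24 h, a ratio of 247 (44.0 to 9801).

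Losses in WT cells were as complete. At 8 h a B2_Mm1t copy near Gm11695 (chr11:115461237-115461330) went from 72 and 72 counts to 0 and 0, at least 50.4-fold lower. A B2_Mm1a copy in an intron of Fam171b (chr2:83827785-83827974) went from 38 and 41 to 0 and 0 (at least 27.6-fold), with no count at any other repeat within 5 kb and 1 to 7 counts for the gene in each library. Copies in introns of Oas2, an interferon-induced synthetase (chr5:120744692-120744879), and Cytip (chr2:58156286-58156466) also reached 0 (at least 16.4-fold and 14.7-fold lower). In an intron of Sp100, a nuclear body component, 1 B3 copy (chr1:85699200-85699407) went from 45 and 33 counts to 1 and 0 at 8 h, a ratio of 81.9 (14.3 to 3274). Another (chr1:85698602-85698795) went from 59 and 45 to 1 and 0 at 24 h, a ratio of 115 (20.2 to 4579). The printed B2_Mm2 copy in the pseudogene Gm11346 went from 66 and 94 counts at 0 h to 8 and 3 at 8 h and 0 and 0 at 24 h, at least 58.9-fold lower. B3 copies in introns of Gmfg and Samd4b (chr7:28443468-28443578) and of the glycosyltransferase gene Galnt6 (chr15:100708187-100708377) fell at least 26.5-fold and 15.8-fold by 24 h.

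In the fit of all 12 libraries the B2 family total passed the test in none of the 3 comparisons of KO with WT cells. KO libraries had B2 totals of 10288 and 11130 CPM at 0 h, 9661 and 10773 at 8 h, and 8662 and 9015 at 24 h. At 0 h both were below the 2 WT libraries, at 8 h both were above, and at 24 h both were above. The log2 differences of KO against WT were -0.11 ± 0.10 at 0 h, 0.11 ± 0.10 at 8 h and 0.22 ± 0.10 at 24 h, with adjusted p = 0.399, 0.751 and 0.105. The change of the difference from 0 h to 24 h was 0.33 ± 0.14 (adjusted p = 0.0547). Both 24 h results depended on the fit. Among alternatives with 2 libraries per group, the difference passed with its 4 libraries alone (adjusted p = 0.0258). The change passed with the replicate block (0.0394), with only its own libraries (0.0162) and under DESeq2 (0.0341). Some fits without 1 library also passed, for either result. An exact two-sided permutation test of the B2 share of gene counts, with labels exchanged within times, gave a mean log2 difference of 0.11 and p = 0.130 (0.324 adjusted over 5 measures), where 0.00926 is the smallest p the design allows. Without the first KO library at 0 h the exact permutation p was 0.0463. B2 relative to B1 differed by 0.03 (exact permutation p = 0.0463, adjusted 0.231), and relative to B4 by 0.01 (exact permutation p = 0.704). At 24 h the KO differences of B1 and B4 were 0.21 and 0.25.

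Among the subfamilies, B2_Mm2 and B3 were called higher in KO cells at 24 h. B2_Mm2 summed to 1542 and 1511 CPM in WT and 1787 and 1818 in KO, and B3 to 3123 and 2861 in WT and 3514 and 3684 in KO. The groups did not overlap. The log2 differences were 0.24 ± 0.07 (adjusted p = 0.0398) and 0.27 ± 0.08 (adjusted p = 0.0420) in edgeR's quasi-likelihood test, and 13.1% of all subfamilies were called higher there. B3A differed by 0.22 (adjusted p = 0.110), B2_Mm1t by 0.15 (0.176) and B2_Mm1a by 0.04 (0.769). The change of the knockout difference between 0 h and 24 h was called for B2_Mm2 (0.35, adjusted p = 0.0499) and B3 (0.42, adjusted p = 0.0405), with 7.26% of all subfamilies called higher. Both of these were lost without any WT library, the first KO library at 0 h or the second at 24 h, and that of B2_Mm2 also without the first at 24 h. Both calls at 24 h were lost under DESeq2 (adjusted p = 0.155 and 0.159) and when any WT library or either KO library at 24 h was left out, and the differences shrank to 0.04 and 0.06 with repeat totals. At 0 h the 5 subfamilies differed by -0.17 to 0.03 (lowest adjusted p = 0.704), and at 8 h by 0.10 to 0.16 (lowest adjusted p = 0.944).

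By position, B2 counts in KO cells at 24 h differed by 0.16 in exons, 0.28 in introns and 0.12 outside genes, and none passed the test (adjusted p = 0.0993, 0.139 and 0.414), while 17.6% of the 91 combinations of family and position were called higher. Outside genes, B1 differed by 0.77 and B4 by 0.61 (adjusted p = 0.0215 for each). The difference between these families and B2 was not tested.

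At the level of single loci the knockout calls were few before activation and more numerous at 24 h. At 0 h, 7 B2 loci were called higher and 0 lower, beside 295 at an unadjusted p under 0.05. Over all repeat loci 0.225% were called higher and 0.0322% lower. At 8 h, 7 were called higher and 1 lower, against a background of 0.207% and 0.0241%. At 24 h, 96 were called higher (1.66%) and 79 lower (1.37%), against 2.44% and 1.51% of all repeat loci. The median difference of the tested B2 loci at 24 h was 0.24, as it was for all repeat loci. DESeq2 called 4, 4 and 90 B2 loci at the 3 times, and the 24 h count ranged from 92 without the first KO library at 24 h to 243 without the second KO library at 0 h, in fits whose filter also let more B2 loci through (7825 to 8194 in place of 5773). At 24 h the calls were 52 higher and 16 lower in introns (1.44% and 0.443% of 3614 tested). In exons they were 39 and 51 (2.23% and 2.92% of 1749), and outside genes 5 and 12 (1.22% and 2.93% of 410). By subfamily they were 49 and 27 in B3 (1.95% and 1.07% of 2519 tested). B2_Mm2 had 18 and 16 (1.67% and 1.48% of 1081), and B3A 15 and 11 (1.26% and 0.925% of 1189). B2_Mm1t had 8 and 9 (1.33% and 1.495% of 602), and B2_Mm1a 6 and 16 (1.57% and 4.19% of 382).

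Loci called at 24 h in KO cells went with their hosts. Of 88 exonic loci with a single tested host, the gene was called the same way for 86 and not called for 2. Of 64 intronic loci the gene was called the same way for 54, the other way for 1, and was not called for 9. Over all genes, 17.9% were called higher and 20.7% lower at 24 h. Spearman's correlation between the differences of locus and host was 0.57 over the 1701 exonic and 0.40 over the 3305 intronic loci, which share libraries, depth and in part reads. Intronic loci lay above their hosts by a median of 0.35, and exonic loci by 0.09. The part of the low-count filter in these medians was not tested.

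Of all B2 loci, 1 had at least 10 counts in each of the 6 KO libraries and at most 3 over the 6 WT libraries together. This B3 locus on chromosome 3 (chr3:60771614-60771822), 1.16 kb upstream of the processed pseudogene Gm33707, had 120 and 162 counts in KO cells at 0 h, 38 and 42 at 8 h and 35 and 43 at 24 h, and 0 counts in all 6 WT libraries. It was at least 82.7-fold higher in KO cells at 0 h, 26.2-fold at 8 h and 26.1-fold at 24 h (adjusted p = 3.78e-13, 3.16e-08 and 3.68e-09), with a floor of 3 counts over the WT group. It was not alone there: 22 repeat loci with at least 10 counts, over 66.9 kb, together had 9 counts in the 6 WT libraries and 6805 in the 6 KO libraries. Gm33707 had 1 count in WT and 1533 in KO cells.

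A B3 copy in an intron of Cd4 (chr6:124881474-124881640), the coreceptor gene that defines these cells, also had most of its counts in KO cells. With 8 counts over the 6 WT libraries, this copy did not meet the rule above. It had 1 and 2 counts in WT and 130 and 170 in KO at 0 h, 1 and 0 against 15 and 31 at 8 h, and 2 and 2 against 20 and 39 at 24 h, with no overlap at any time. The KO to WT ratio was 88.0 (95% counting interval 29.8 to 429) at 0 h and 45.2 (7.72 to 1824) at 8 h (adjusted p = 6.86e-12 and 5.92e-05 in edgeR's quasi-likelihood test; 0.0583 at 8 h under DESeq2). A neighbouring B3 copy (chr6:124880140-124880301) had 1 count in WT and 42 in KO cells. The 14 repeat loci with at least 10 counts over 8.53 kb at the 5′ end of Cd4 had 157 counts in WT and 5866 in KO cells, while the 25 such loci over the rest of the gene had 7547 and 7443. The Cd4 gene itself had 1000 and 1048 CPM in WT and 1046 and 1043 in KO cells at 0 h. Across the whole repeat table, 13 loci had at most 3 counts over the 6 WT libraries and at least 10 in each KO library, and 1 of them is a B2 locus. Of these 13, 11 lie in the chromosome 3 stretch and 2 at Cd4. No repeat locus of these classes met the reverse rule.

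The other B2 loci named by rule at 0 h sat in 3′ untranslated regions and had low counts. Not every called locus was named: of the 7 called, 4 were exonic, 2 intronic and 1 intergenic, with 6 in B3 and 1 in B2_Mm1a. The B3 copy in Spc24 (chr9:21755825-21756033), had 0 and 1 counts in WT and 9 and 25 in KO, a ratio of 29.9 (5.02 to 1216). This call was lost under DESeq2 and without the first WT or the second KO library at 0 h. The B3 copy in Dnph1 (chr17:46499059-46499245) had 1 and 1 against 9 and 11, a ratio of 8.80 (2.14 to 77.7), and this call was lost under 8 of 19 alternatives, among them the omission of any library at 0 h or of the second WT library at 24 h. That in Ccl9, a chemokine gene of myeloid cells (chr11:83574984-83575120), had 8 and 1 against 40 and 35 (2.85 ± 0.60, adjusted p = 0.0267), and 11 and 9 against 74 and 183 at 24 h. Its call at 0 h was lost with a minimum count of 30, with only the 4 libraries at 0 h and without the second WT library at 0 h (highest adjusted p = 0.299). The neutrophil progenitor and basophil marker sums were also higher in KO than in WT cells at 0 h and 24 h. Within KO cells the neutrophil progenitor sum was 509 CPM at 0 h and 21.9 and 86.3 CPM at 24 h. The basophil and mast cell sum there was 259 to 710 CPM at 0 h and 140 to 523 CPM at 24 h. The part of such cells in the result was not tested. At 8 h a B3 copy in the 5′ untranslated region of Aebp2 (chr6:140622761-140622914), a cofactor of Polycomb repressive complex 2, had 1 and 0 counts in WT and 20 and 17 in KO, a ratio of 36.4 (6.13 to 1474). This call was lost without the second WT library at 8 h.

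The largest gains in KO cells at 24 h came from B3 copies. The printed copy in an exon of Gm37795 had 0 and 0 counts in WT and 0 and 6 in KO at 0 h, 6 and 7 against 58 and 70 at 8 h, and 12 and 7 against 212 and 182 at 24 h. The groups did not overlap at 8 or 24 h, and the differences were 3.25 ± 0.44 (adjusted p = 7.43e-06) and 4.36 ± 0.41 (adjusted p = 4.75e-11). Gm37795 itself had 65 and 88 counts in WT and 1616 and 1485 in KO at 24 h. A second B3 copy 167 bases past its end (chr4:150071164-150071357) rose by 3.73 ± 0.58 at 8 h and 4.46 ± 0.53 at 24 h. A B3 copy in the 3′ untranslated region of Adgrg3, a G protein-coupled receptor (chr8:95044696-95044861), had 2 and 0 counts in WT and 10 and 36 in KO at 24 h, a ratio of 23.1 (6.04 to 196). The call was lost without the second KO library at 24 h. A B3A copy in an intron of Tnfsf8, the CD30 ligand (chr4:63835136-63835315), had 3 and 0 against 32 and 19, a ratio of 17.1 (5.52 to 85.5), and held only 0.71% of the repeat counts within 5 kb.

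The 5 B2 losses named by fold in KO cells at 24 h lay in Uhrf1, Aurkb and Spc24 and, outside genes, near Gm26316 and Cdk7. A B3 copy in the 3′ untranslated region of Aurkb, a mitotic kinase (chr11:69051136-69051253), had 106 and 96 counts in WT and 2 and 7 in KO. The difference was -4.45 ± 0.55 (adjusted p = 6.79e-08), beside -3.64 for the gene. The Spc24 copy had 133 and 140 counts in WT and 4 and 18 in KO (-3.61 ± 0.46, adjusted p = 1.49e-07), beside -3.97 for the gene. Within an intron of Uhrf1, a partner of the maintenance DNA methyltransferase (chr17:56317271-56317457), a B3 copy had 48 and 65 counts in WT and 1 and 2 in KO, a ratio of 37.5 (12.5 to 185), beside -4.17 for the gene. A B2_Mm1a copy near Gm26316 (chr11:101605596-101605786) had 103 and 101 against 7 and 4 (-4.18), and the copy by Cdk7 58 and 65 against 2 and 8 (-3.58). In none of these 5 loci did the groups overlap.

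The knockout difference itself changed between 0 h and 24 h at 36 B2 loci upward and 23 downward, or 0.624% and 0.398%. Over all repeat loci 0.81% changed upward and 0.596% downward. Between 0 h and 8 h edgeR called 0 B2 loci (299 at an unadjusted p under 0.05), as did DESeq2 (120 at an unadjusted p under 0.05), and 0% of all repeat loci. The largest downward changes were at Spc24, Uhrf1 and Aurkb, described above. The largest upward changes were at intronic copies in Plagl2 (B2_Mm1t, chr2:153234203-153234394), Mdm4, an inhibitor of p53 (B2_Mm2, chr1:132997445-132997629), and Cd55, a complement regulator (B3, chr1:130443106-130443301). The Mdm4 copy had 8 and 12 counts in WT and 6 and 9 in KO at 0 h, and 2 and 3 against 23 and 33 at 24 h. The Plagl2 copy had 7 and 6 against 0 and 1 at 0 h, and 12 and 18 against 25 and 34 at 24 h. The Cd55 copy had 18 and 19 against 2 and 13 at 0 h, and 3 and 3 against 16 and 15 at 24 h. The Plagl2 call was lost without the first library of WT or KO at 0 h, the first of WT or the second of KO at 24 h. The Mdm4 call was lost without the second WT library at 0 h, the first WT or the second KO library at 24 h, and the Cd55 call without the first KO library at 0 h, either WT library or the first KO library at 24 h. The downward change at Uhrf1 was lost without the first KO library at 0 h.

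The orientation of a copy could be read for part of the exonic loci, from the strand that held the B box letters. Copies in the direction of their host numbered 1140, with 208914 counts and 263 tested, and copies against it 1399, with 62805 counts and 206 tested. A count was found at 70% of the sense and 70.5% of the antisense copies, and the sums give most weight to abundant loci. In 3′ untranslated regions the sense copies numbered 415 and held 173478 counts, and the antisense copies 339 with 27630. In noncoding exons the 704 sense and 1040 antisense copies held 34017 and 33737 counts. In 5922 exonic loci with a sequence no direction could be read.

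Genes of the RNA polymerase III machinery, which transcribes B2 elements from their internal promoter, were measured in the same libraries. Of 24 such genes, all tested, 17 were higher and 5 lower in WT cells at 8 h, and 13 and 3 at 24 h, with median log2 changes of 0.68 and 0.40 against -0.14 and -0.08 over all genes. Over all genes, 28.4% were called higher and 33.6% lower at 8 h, and 33% and 33.5% at 24 h. Polr3g, a polymerase subunit, rose by 1.97 at 8 h, while Polr3gl, the paralogue of Polr3g, and Maf1, the repressor of the polymerase, fell by 3.35 and 1.10. In KO against WT cells at 24 h, 5 were higher and 4 lower, with a median of -0.01 against 0.02 over all genes, of which 17.9% were called higher and 20.7% lower. Maf1 (0.88 ± 0.11, adjusted p = 1.42e-05) and Gtf3c1, a subunit of TFIIIC, which binds the B box (0.73 ± 0.10, adjusted p = 4.26e-05), were higher. Polr3k, a polymerase subunit, was lower (-0.58).

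Of 19 genes linked to B2 RNA or to silencing of repeat chromatin, 13 were higher and 2 lower in WT cells at 24 h, and 1 was higher and 10 lower in KO against WT cells at 24 h. The background over all genes was 33% higher and 33.5% lower in WT activation, and 17.9% and 20.7% in the knockout comparison. The 24 h medians of the list were 0.80 and -0.31, against -0.08 and 0.02 over all genes. The lower genes in KO cells included Uhrf1 (-4.17), the DNA methyltransferase gene Dnmt1 (-2.33), the histone H3 lysine 9 methyltransferase genes Suv39h1 (-1.12) and Setdb1 (-0.59), the corepressor gene Trim28 (-0.58) and Ezh2 (-0.50), the catalytic subunit of Polycomb repressive complex 2. Eed, another subunit of that complex, was the 1 higher gene (0.39). Ctcf, Adar and Dicer1 did not pass the test in KO cells at 24 h, and in WT cells at 24 h Adar and Dicer1 were the 2 lower genes (-0.88 and -0.36).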

How the data were processed

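Ribosomal-RNA-depleted total RNA libraries of 12 samples (6 groups of 2) were analysed. The authors deposited whole-number counts per gene and per repeat locus. Per the submitters' processing notes the build was mm10 and the tools included fastp 0.12.4 and STAR 2.7.1a. The sources used here name no counting program, repeat annotation, use of strand or treatment of reads with several alignments, so antisense and overlapping features cannot be separated.

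Rows whose label reads SINE/B2 were taken as members. Repeat rows outside the LINE, SINE, LTR and DNA classes were left out before any step. The members, gene lists and tests were chosen with earlier results of these data known. Counts were scaled by gene-table totals times TMM factors and tested with edgeR 4.0.16 (R 4.3.3), quasi-likelihood, 6 group means, 6 residual degrees of freedom, Benjamini-Hochberg adjustment over all rows of each table and a threshold of 0.05. Loci needed a minimum count of 10 by edgeR's filter and 15 in total. Families, subfamilies, and families by position were tested as sums. Positions came from GENCODE M21 (GRCm38). DESeq2 1.42.0, Python 3.11.15, numpy 2.4.6, scipy 1.17.1 and pandas 2.3.3 were also used, and the fits were tested on simulated data. CPM means counts per 1000000 gene counts. Folds against a group at 0 use a floor of 3 counts over the group, and ratios with 1 to 3 counts in the lower group carry exact 95% intervals, both for counting error only.

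Loci were named by rule: the 10 with the largest mean CPM, the 5 most abundant farther than 10 kb from genes, per comparison up to 5 in each direction by fold among called loci with a mean of at least 0.5 CPM and no overlap between groups, up to 3 per direction for changes of the knockout difference, and the 5 genes with the most tested loci. The neighbouring Cd4 copy and the extra printed sequences were chosen after their values were seen. Alternatives were no TMM factors, RLE factors, repeat totals, DESeq2, only the libraries of a contrast, a replicate block, minimum counts of 5 and 30, only loci of at least 150 bases or outside exons, and each library left out. No sequence was read for loci outside transcripts, and some sequences and 1 gene are not reported here.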

Additional observations from a re-analysis of the deposited data

Results flagged for a closer look

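The test of the change of the knockout difference between 0 h and 24 h called 36 B2 loci upward and 23 downward. It also called the summed counts of B2_Mm2 and B3. The 8 results given here are these sums and up to 3 loci per direction, taken by fold under the naming rule. Summed B2_Mm2 counts changed by 0.35 on the log2 scale and summed B3 counts by 0.42, with both KO libraries above both WT libraries at 24 h. Among single loci, the change was 4.55 for the B2_Mm1t copy at chr2:153234203 (Plagl2), 4.02 for the B2_Mm2 copy at chr1:132997445 (Mdm4) and 3.82 for the B3 copy at chr1:130443106 (Cd55), with adjusted p = 0.0266, 0.0134 and 0.0341 in edgeR's quasi-likelihood test. The change was -8.21 for the B3 copy at chr9:21755825 (Spc24), -7.04 for that at chr17:56317271 (Uhrf1) and -6.94 for that at chr11:69051136 (Aurkb). These 3 fitted values rest on 1 or 2 counts over the WT libraries at 0 h, depend on the prior count and are no bounds.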

How the results depend on the processing

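Counts of called B2 loci, in the order KO against WT (0, 8, 24 h), activated WT (8, 24 h) and change of the knockout difference to 8 and 24 h, were 7, 8, 175, 1611, 2037, 0 and 59. With the replicate block they were 9, 10, 203, 1646, 2067, 0 and 78, and with DESeq2 4, 4, 90, 943, 1322, 0 and 30. Repeat-table totals gave 14 for KO at 0 h and 1 for the change to 8 h, and a minimum count of 5 gave 11 and 1. A minimum count of 30, with fewer loci tested, gave 711 and 780 for WT at 8 and 24 h. Fits of only the 4 libraries gave 2 at 0 h and 299 at 24 h for KO. Leaving out 1 library changed the filter as well, since a group of 1 lets more loci through (7825 to 8194 B2 loci tested in place of 5773), and takes the lone library to vary like the others. It gave ranges of 8 to 20, 6 to 14, 92 to 243, 957 to 1852, 1384 to 2410, 0 to 9 and 47 to 113. Where a cause is not evident from the setting, it was not tested.

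For the family total, repeat-table totals turned the difference to 0.0759 for KO at 0 h, 0.0461 and 0.0754 for activated WT cells at 8 and 24 h and -0.0621 for the change to 24 h. RLE factors gave -0.22 (adjusted p = 0.0514) for WT at 8 h. Among alternatives with 2 libraries per group, the KO difference at 24 h, 0.22, passed with its 4 libraries alone (adjusted p = 0.0258). The change to 24 h, 0.33, passed with the replicate block (0.0394), its own libraries alone (0.0162) and DESeq2 (0.0341). Some fits without 1 library also passed, for either result. Without 1 library the family differences were -0.17 to -0.06, 0.03 to 0.19 and 0.18 to 0.25 for KO at 0, 8 and 24 h, -0.31 to -0.27 and -0.64 to -0.57 for WT at 8 and 24 h, and 0.14 to 0.30 and 0.27 to 0.39 for the changes. The permuted B2 share was 0.0622 (exact permutation p = 0.0278) with repeat totals and 0.0713 to 0.146 without 1 library.

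Repeat totals also turned sums to -0.166, 0.0875 and 0.465 (B2_Mm1a, KO at 24 h, WT at 8 and 24 h), -0.0557 and 0.0504 (B2_Mm1t, KO and WT at 24 h), 0.13, 0.14 and -0.0455 (B2_Mm2, WT at 8 and 24 h and the change to 24 h), 0.0676 and 0.0273 (B3, WT), -0.0403, 0.26 and 0.29 (exonic) and -0.0915, 0.24 and 0.47 (intergenic). Of these turned sums, those of B2_Mm2 and of exonic loci in WT cells at 8 and 24 h passed the test. So did those of B2_Mm1a and of intergenic loci in WT cells at 24 h. No source says whether replicate numbers pair the libraries. Deviations of same-numbered libraries correlated at -0.15 to 0.39 over 15 pairs of groups, above 0.1 in 9, among them all 6 pairs within a genotype, so pairing within genotypes is possible and the block stands as an alternative. The filter set which loci were tested: a minimum count of 5 admitted 13232 B2 loci and one of 30 admitted 1311, in place of 5773.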
